A study of Homo sapiens with 3 samples.

Results

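Cholesterol is built from acetyl-CoA by a chain of enzymes, and 8 genes of this pathway were examined in Cal62 cells, a human thyroid cancer cell line, after knockdown of ADAR1, the enzyme that deaminates adenosine to inosine in double-stranded RNA. The genes were taken by symbol, and all 8 had a row among the 58333 genes measured: HMGCS1 (ENSG00000112972), IDI1 (ENSG00000067064), FDPS (ENSG00000160752), FDFT1 (ENSG00000079459), SQLE (ENSG00000104549), LSS (ENSG00000160285), DHCR7 (ENSG00000172893) and INSIG1 (ENSG00000186480). The cells were grown in medium with fetal bovine serum and transfected with a non-targeting siRNA (siControl) or with 1 of 2 siRNAs against ADAR1 (siADAR1 #1 and siADAR1 #2), and poly(A)+ RNA was sequenced in 2 libraries per transfection, 6 in all. All libraries come from a single cell line treated with a lipid transfection reagent, and the time from transfection to RNA isolation was not given for them in the sources used here. The sample labels name 1 sample per transfection, and the 2 columns of each were taken as the independent biological replicates that the methods describe.

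HMGCS1 makes HMG-CoA from acetyl-CoA, IDI1 and FDPS turn the isoprenoid unit into farnesyl pyrophosphate, and FDFT1 joins farnesyl units into squalene. SQLE oxidizes squalene, LSS closes the sterol rings to lanosterol, and DHCR7 performs a last reduction to cholesterol. INSIG1 is no enzyme. It holds the SCAP-SREBP complex in the endoplasmic reticulum when sterols are plentiful. When sterols are low, SREBP2, the product of SREBF2, is cut by the proteases encoded by MBTPS1 and MBTPS2 and switches on the genes of the pathway, INSIG1 included, whereas oxysterols act through the LXR receptors to raise export genes such as ABCA1.

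The depth was between 30114840 and 50029763 reads on genes per library, so that 3 reads corresponded to 2.81 to 4.39 normalized counts, far below the level of any of the 8 genes. Values are normalized counts, that is, reads divided by the size factor of the library. ADAR fell to 15.8% of the siControl mean with siADAR1 #1 and to 20.3% with siADAR1 #2. Of the markers checked, the thyroid factor PAX8 was at 2542 to 15868 normalized counts and the epithelial keratin KRT8 at 30769 to 43025, while the thyroid factor NKX2-1 and the T cell marker CD3E were at 0 in every library. The summed level of the 7 thyroid markers was 14298 to 16115 in siControl, 10509 to 15226 with siADAR1 #1 and 2819 to 5705 with siADAR1 #2. The summed level of the 3 mesenchymal markers was 269905 to 281768 in siControl, 78846 to 131133 with siADAR1 #1 and 85759 to 152930 with siADAR1 #2. The summed level of the 4 epithelial markers was 71151 to 89898 in siControl, 98864 to 103010 with siADAR1 #1 and 61622 to 70578 with siADAR1 #2, the order of groups seen for FDFT1, SQLE and CYP51A1 below. These lists thus moved with the transfections, and their part in the results on cholesterol genes was not tested. In RNA from whole cultures, a change per cell cannot be told apart from a change in the share of cells that express a gene.

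Promoter sequences were printed for 4 of the genes and for SREBF2, because the 4 include those with the largest rises with siADAR1 #1 as well as LSS, which differed between the siRNAs in the opposite direction. These 5 promoters were chosen after the values were seen. RefSeq (GRCh38.p14) gave promoters, 250 bases before to 50 after each start, for 6 of the 8 genes, 10 promoters in all. Those of FDFT1 and SQLE were not analysed here. The letters TCACNCCAC (the sterol regulatory element that SREBPs bind), CCAAT (bound by NF-Y) and GGGCGG (bound by Sp1) were searched on both strands. Each line below gives the 200 bases just before the start, 5′ to 3′ on the strand of the gene. Capitals mark CCAAT, which reads ATTGG on the opposite strand, and in SREBF2 also the sterol regulatory element. The windows lie at chr5:43313413-43313612 (HMGCS1, minus strand), chr10:1049120-1049319 (IDI1, minus), chr7:155297678-155297877 (INSIG1, plus), chr21:46228775-46228974 (LSS, minus) and chr22:41832905-41833104 (SREBF2, plus).
HMGCS1: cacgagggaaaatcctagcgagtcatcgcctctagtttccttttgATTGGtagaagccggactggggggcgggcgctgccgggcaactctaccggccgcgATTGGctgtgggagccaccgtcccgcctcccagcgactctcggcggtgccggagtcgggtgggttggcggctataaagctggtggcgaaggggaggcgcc
IDI1: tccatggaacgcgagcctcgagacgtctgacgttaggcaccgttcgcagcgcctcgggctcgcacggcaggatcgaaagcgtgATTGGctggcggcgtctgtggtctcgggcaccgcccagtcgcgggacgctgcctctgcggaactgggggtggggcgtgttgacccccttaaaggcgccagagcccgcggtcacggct
INSIG1: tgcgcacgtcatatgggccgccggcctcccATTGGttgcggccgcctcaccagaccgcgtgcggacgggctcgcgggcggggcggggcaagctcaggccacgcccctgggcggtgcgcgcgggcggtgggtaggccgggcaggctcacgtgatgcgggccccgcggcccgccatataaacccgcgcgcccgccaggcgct
LSS: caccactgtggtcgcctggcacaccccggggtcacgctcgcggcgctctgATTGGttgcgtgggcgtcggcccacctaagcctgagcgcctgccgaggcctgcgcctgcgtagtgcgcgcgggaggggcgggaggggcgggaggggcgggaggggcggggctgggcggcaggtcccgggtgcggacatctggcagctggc
SREBF2: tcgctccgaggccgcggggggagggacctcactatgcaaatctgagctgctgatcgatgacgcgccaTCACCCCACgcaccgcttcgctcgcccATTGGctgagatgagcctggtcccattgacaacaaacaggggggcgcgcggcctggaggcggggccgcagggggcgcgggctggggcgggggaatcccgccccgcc

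CCAAT was present in 7 of the 10 promoters, against 34.6% of all 35116 promoters. Each of the 6 genes had it in at least 1 promoter, a count per gene that has no matching background here. Some promoters of HMGCS1 and of IDI1 overlap, so the 10 are not separate sequences. GGGCGG was present in 9 of the 10, against 45% of all. TCACNCCAC was in 0 of the 10 promoters, against 1.13% of all, while the SREBF2 promoter held it once, starting 133 bases before the start site. The shorter TCACNCCA, which overlaps it and was searched only after that first result, was also in 0 of the 10, against 3.95% of all. These counts describe letters in a short window and were not tested. All 6 genes with promoters held CCAAT, LSS included, and its part in the differences between the siRNAs was not tested.

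Per kilobase of merged exons, a rough measure because the transcripts in use are not known, FDFT1 had a level of 1658 ± 63.9 normalized counts in siControl (SD, n = 2), INSIG1 1635 ± 424 and SQLE 1536 ± 190. Below them stood IDI1 at 1243 ± 168, FDPS at 1195 ± 15.4, HMGCS1 at 964 ± 67.5 and DHCR7 at 858 ± 28.5. LSS was lowest, at 262 ± 2.91. The siControl libraries of FDFT1, INSIG1 and SQLE overlapped, as did those of INSIG1 and IDI1 and of IDI1 and FDPS, so that these neighbours could not be ranked beyond their spread. With 2 libraries per gene the remaining order is a description.

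With siADAR1 #1, 5 of the 8 genes were upregulated and 0 were downregulated, against 6.18% and 10.6% of the 20858 genes tested. The 8 genes were chosen with earlier results of these data known, so this contrast is a description and no test of an excess. A gene was called at an adjusted p-value under 0.05 with a log2FC beyond 0.5 in either direction. The risen genes were HMGCS1, IDI1, FDFT1, SQLE and INSIG1, at 157% to 248% of their siControl means. The median log2FC of the 8 genes was 0.72, against −0.02 for all genes tested. Over all genes, 36.8% of the calls were upregulated, a share that became 53.4% when the libraries were centred on their medians and 47.7% after quantile normalization. Centring moved the median log2FC of all genes to 0.12, and the 5 called genes were called on each of these scales.

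HMGCS1 was at 6703 and 6070 normalized counts in siControl, 14172 and 15595 with siADAR1 #1, and 9474 and 7287 with siADAR1 #2. Both siADAR1 #1 libraries stood above all others, and the siADAR1 #2 libraries lay between them and siControl without overlap. The log2FC with siADAR1 #1 was 1.22 ± 0.15 (SE, adjusted p = 0.00324, limma). INSIG1 was at 7061 and 4874 in siControl, 15549 and 14104 with siADAR1 #1, and 6016 and 5027 with siADAR1 #2. Its siADAR1 #2 values fell between the siControl values, and those with siADAR1 #1 were far above both. It had the largest rise of the 8 genes, with a log2FC of 1.34 ± 0.18 (SE, adjusted p = 0.00453, limma).

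IDI1 was at 5846 and 4826 normalized counts in siControl, 10105 and 10273 with siADAR1 #1, and 5154 and 4314 with siADAR1 #2. The siADAR1 #2 values overlapped those of siControl, whereas both siADAR1 #1 values were higher, with a log2FC of 0.94 ± 0.14 (SE, adjusted p = 0.00543, limma). FDFT1, at the branch from isoprenoids to sterols, was at 8651 and 8191 in siControl, 12806 and 13701 with siADAR1 #1, and 6404 and 6194 with siADAR1 #2. The 3 groups were separate, with siADAR1 #1 highest and siADAR1 #2 lowest. With siADAR1 #1 the log2FC of FDFT1 was 0.65 ± 0.10 (SE, adjusted p = 0.00692, limma). Without siControl replicate 1 the log2FC of FDFT1 was 0.69 and the adjusted p-value 0.0523 (0.00313 to 0.0561 over all settings).

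SQLE followed the order of FDFT1. It was at 7192 and 6037 normalized counts in siControl, 11412 and 11217 with siADAR1 #1, and 4716 and 4243 with siADAR1 #2. The groups did not overlap. The log2FC of SQLE was 0.78 ± 0.12 with siADAR1 #1 (SE, adjusted p = 0.00703, limma).

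**Figure D1:**
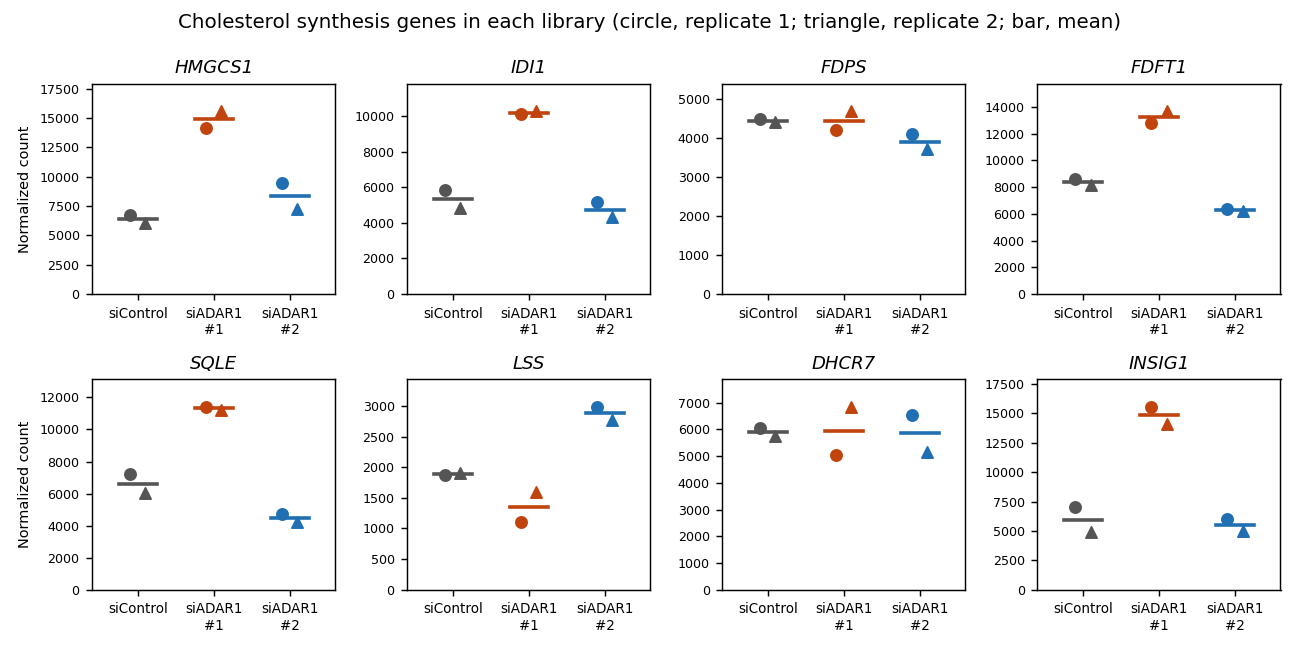
Normalized counts (vertical axes, linear and starting at 0) of the 8 cholesterol genes in siControl (grey), siADAR1 #1 (orange) and siADAR1 #2 (blue); points are libraries and bars are means of 2. The siADAR1 #1 libraries stand above the other 4 for HMGCS1, IDI1, FDFT1, SQLE and INSIG1, and below them for LSS.

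LSS, FDPS and DHCR7 were not called with siADAR1 #1. LSS was at 1880 and 1909 normalized counts in siControl, 1113 and 1593 with siADAR1 #1, and 2984 and 2777 with siADAR1 #2. All 3 groups were separate, in the reverse order of FDFT1 and SQLE. The log2FC of LSS was −0.51 ± 0.18 with siADAR1 #1 (SE, adjusted p = 0.0842, limma), and without siADAR1 #1 replicate 2 it was −0.77 and was called (adjusted p = 0.0130, with 0.0130 to 0.353 over all settings).

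FDPS was at 4484 and 4403 normalized counts in siControl, 4202 and 4690 with siADAR1 #1, and 4097 and 3706 with siADAR1 #2. The siADAR1 #1 values enclosed those of siControl, and those with siADAR1 #2 were the lowest. DHCR7 was at 6040 and 5762 in siControl, 5046 and 6845 with siADAR1 #1, and 6548 and 5150 with siADAR1 #2. For DHCR7 each knockdown enclosed the siControl range. The log2FC with siADAR1 #1 was −0.0014 ± 0.12 for FDPS and −0.0054 ± 0.17 for DHCR7 (SE), and the sign of both turned on the 2 rescaled data sets and with recomputed size factors.

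With siADAR1 #2, 1 of the 8 genes was upregulated (LSS) and 1 was downregulated (SQLE), against 11.1% and 15.5% of all genes tested, so the members' shares were near the background. The median log2FC was −0.13 over the 8 genes and −0.01 over all genes. LSS rose to 152% of the siControl mean, with a log2FC of 0.60 ± 0.18 (SE, adjusted p = 0.0349, limma). SQLE fell to 67.7%, with a log2FC of −0.56 ± 0.12 (SE, adjusted p = 0.0122, limma). Both calls depended on single libraries and were also lost without the eBayes trend. The call of LSS was lost without siControl replicate 1 (log2FC 0.59, adjusted p = 0.149), without siControl replicate 2 (0.61, 0.128), without siADAR1 #2 replicate 1 (0.55, 0.155) and without siADAR1 #2 replicate 2 (0.66, 0.0825), within 0.00734 to 0.155 over all settings. The call of SQLE was lost without siControl replicate 1 (log2FC −0.43, adjusted p = 0.0768) and without siADAR1 #2 replicate 2 (−0.48, 0.0743), and by fold after quantile normalization (−0.40), within 0.00598 to 0.0768 over all settings.

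FDFT1 was at 74.8% of siControl with siADAR1 #2 and passed the p-value threshold, but its log2FC of −0.42 ± 0.10 (SE, adjusted p = 0.0188, limma) was inside the fold threshold. HMGCS1 had a positive log2FC of 0.38 ± 0.15 (SE, adjusted p = 0.0862, limma), and it was called after quantile normalization (0.54) and without siADAR1 #2 replicate 2 (0.57, adjusted p = 0.0363, with 0.0142 to 0.458 over all settings). IDI1, INSIG1, FDPS and DHCR7 had log2FC values of −0.17, −0.09, −0.19 and −0.02, with adjusted p-values of 0.268 to 0.940 (limma).

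The siRNAs were compared with each other to test whether the responses differed. HMGCS1, IDI1, FDFT1, SQLE and INSIG1, 5 of the 8 genes, were higher with siADAR1 #1 than with siADAR1 #2, against 16.1% of all genes. LSS, 1 of the 8, was lower, against 16.7% of all genes. As the 8 were chosen with earlier results of these data known, these shares are descriptions. The log2FC of siADAR1 #1 over siADAR1 #2 was 1.43 ± 0.18 for INSIG1 (SE, adjusted p = 0.000933, limma), 1.34 ± 0.12 for SQLE (0.000317), 1.11 ± 0.14 for IDI1 (0.000827), 1.07 ± 0.10 for FDFT1 (0.000356) and 0.84 ± 0.15 for HMGCS1 (0.00331). For LSS it was −1.11 ± 0.18 (adjusted p = 0.00221). These 6 calls held in all 16 alternative settings, those without 1 library included. FDPS and DHCR7 had differences of 0.19 ± 0.12 and 0.02 ± 0.17, with adjusted p-values of 0.251 and 0.952, which does not show that the siRNAs act alike on them. ADAR itself had a log2FC of −0.35 ± 0.30 between the siRNAs (adjusted p = 0.404).

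**Figure D2:**
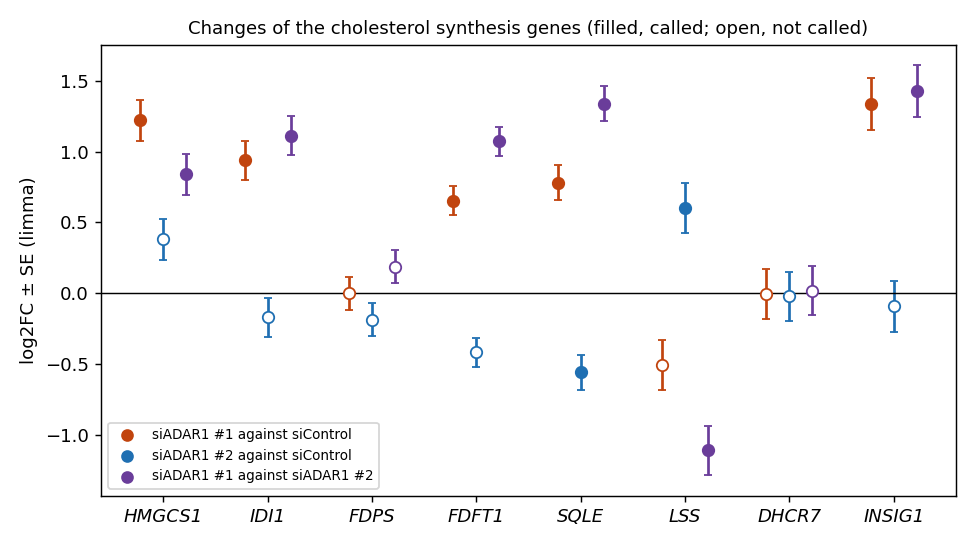
The log2FC ± SE from limma (vertical axis) of the 8 genes for siADAR1 #1 against siControl (orange), siADAR1 #2 against siControl (blue) and siADAR1 #1 against siADAR1 #2 (purple); filled points are called. The purple points are filled for 6 genes, above 0 for 5 of them and at −1.11 for LSS, and the comparisons with siControl share its 2 libraries.

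With the 4 siADAR1 libraries taken as 1 group, 0 of the 8 genes were called by limma, against 0% of the 20858 genes tested. ADAR itself was not called here, with a log2FC of −2.53 ± 0.32 (SE, adjusted p = 0.0988, limma). At an unadjusted p-value under 0.05, 1 of the 8 genes passed (HMGCS1, log2FC 0.80 ± 0.32). So did 2916 of the 20858 genes tested, a similar share. Limma-voom on the recovered reads also called 0 of the 8. The median log2FC of the 8 genes in this comparison was 0.11. In this grouping opposite changes, as those of SQLE (0.78 and −0.56) and LSS (−0.51 and 0.60), are averaged, and the difference between the siRNAs counts as spread.

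The other genes of sterol metabolism were examined from 6 lists with 57 genes, of which 55 were tested. These lists were also chosen with earlier results of these data known, and none was tested as a set. With siADAR1 #1, 11 were upregulated and 5 downregulated, and with siADAR1 #2 the counts were 9 and 10. Over all genes tested, 6.18% were upregulated and 10.6% downregulated with siADAR1 #1, and 11.1% and 15.5% with siADAR1 #2, so that the list counts with siADAR1 #2 were near these shares. Their median log2FC was 0.072 with siADAR1 #1 and 0.066 with siADAR1 #2. Among 10 further enzymes after squalene, 4 were upregulated with siADAR1 #1 and 0 were downregulated, and with siADAR1 #2 the counts were 0 and 2, the latter near the share of 15.5% over all genes. CYP51A1, which demethylates lanosterol, rose with siADAR1 #1 (log2FC 0.74 ± 0.10, adjusted p = 0.00498, limma) and fell with siADAR1 #2 (−0.66 ± 0.10, adjusted p = 0.00284). It was at 6691 and 6149 normalized counts in siControl, 10598 and 10775 with siADAR1 #1, and 4023 and 4069 with siADAR1 #2, so that it ordered the groups as FDFT1 and SQLE did. MSMO1, the methylsterol oxidase of the next steps, rose with siADAR1 #1 (0.94 ± 0.12, adjusted p = 0.00420) and had a log2FC of −0.35 with siADAR1 #2 (0.0668). SC5D, a sterol desaturase, had a log2FC of 0.11 with siADAR1 #1. With siADAR1 #2 SC5D passed the p-value threshold and was just inside the fold threshold (−0.499 ± 0.13, adjusted p = 0.0232, with 0.0143 to 0.137 over all settings), and it was called without siControl replicate 2 (−0.61, adjusted p = 0.0391). The other calls, named after their values were seen, were NSDHL (0.52 ± 0.12) and ERG28 (0.53 ± 0.13) with siADAR1 #1 and EBP (−0.57 ± 0.15) with siADAR1 #2. Their adjusted p-values were 0.0241, 0.0247 and 0.0241 (limma). All lay close to the fold threshold, and their calls were not followed over other settings.

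Of the 5 other mevalonate and isoprenoid enzymes tested, 0 were called with siADAR1 #1 and 1 was downregulated with siADAR1 #2. Over all genes, 6.18% were upregulated and 10.6% downregulated with siADAR1 #1, and 11.1% and 15.5% with siADAR1 #2. At an unadjusted p-value under 0.05 (limma), 2 of the 5 passed with siADAR1 #1, as did 6790 of the 20858 genes tested. ACAT2, a cytosolic thiolase that supplies acetoacetyl-CoA to HMGCS1, fell with siADAR1 #2 to 50.4% of siControl (log2FC −0.99 ± 0.13, adjusted p = 0.00145, limma) and had a log2FC of −0.07 with siADAR1 #1. GGPS1, which lengthens the product of FDPS, had a log2FC of −0.64 ± 0.19 with siADAR1 #1 (adjusted p = 0.0506) and −0.18 with siADAR1 #2. A replicate block gave GGPS1 an adjusted p-value of 0.0192 with siADAR1 #1, which made it a call. It was also called with a filter at 50 normalized counts (0.0394), by voom (0.0429) and without siADAR1 #1 replicate 2 (0.0240), within 0.0192 to 0.230 over all settings. PMVK, the phosphomevalonate kinase, had a log2FC of −0.60 ± 0.21 with siADAR1 #1 (adjusted p = 0.0879) and 0.21 ± 0.21 with siADAR1 #2. Without siADAR1 #1 replicate 2 the log2FC of PMVK with siADAR1 #1 was −0.85 and was called (adjusted p = 0.0289, with 0.0289 to 0.362 over all settings).

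**Figure D3:**
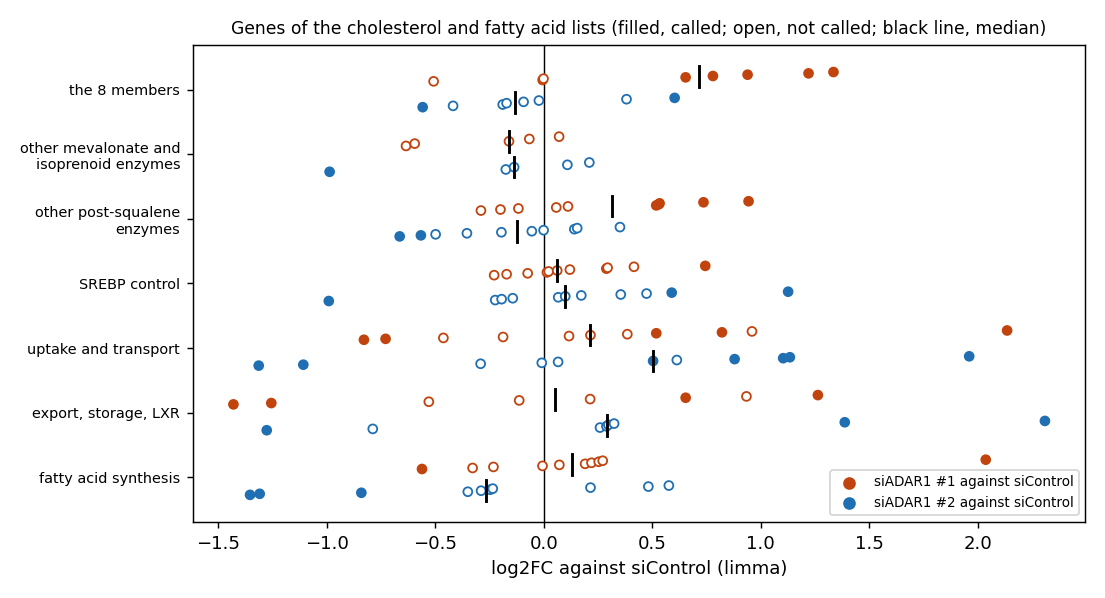
The log2FC against siControl (horizontal axis, limma) of the tested genes of each list with siADAR1 #1 (orange) and siADAR1 #2 (blue); filled points are called and black lines are medians. The medians of the 8 members were 0.72 and −0.13, and those of the other post-squalene enzymes were 0.31 and −0.13, while both siRNAs had calls in either direction among the uptake and transport genes.

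In the list of 11 SREBP control genes, 1 was upregulated with siADAR1 #1, and 2 were upregulated and 1 downregulated with siADAR1 #2. The shares upregulated and downregulated over all genes were 6.18% and 10.6% with siADAR1 #1, and 11.1% and 15.5% with siADAR1 #2. SREBF2 was at 8986 and 7412 normalized counts in siControl, 8916 and 8826 with siADAR1 #1, and 4267 and 3948 with siADAR1 #2. The siADAR1 #1 values lay inside the siControl range, and those with siADAR1 #2 were at 50.1% of the siControl mean, with a log2FC of −0.99 ± 0.12 (SE, adjusted p = 0.00121, limma). INSIG2, the paralog of INSIG1, was at 1259 and 1202 in siControl, 1619 and 1664 with siADAR1 #1, and 2768 and 2610 with siADAR1 #2. It was highest with siADAR1 #2, where its log2FC was 1.13 ± 0.12 (adjusted p = 0.000672). INSIG1, in contrast, was highest with siADAR1 #1, while the INSIG2 libraries of both siRNAs stood above siControl. The difference between the siRNAs was −0.71 ± 0.12 for INSIG2 (adjusted p = 0.00294). MBTPS1, the site-1 protease, rose with siADAR1 #1 (0.74 ± 0.10, adjusted p = 0.00444) and had a log2FC of 0.47 with siADAR1 #2, inside the fold threshold (adjusted p = 0.0102, with 0.00391 to 0.0678 over all settings). With siADAR1 #2 MBTPS1 was called after quantile normalization (0.61) and without siControl replicate 2 (0.52, adjusted p = 0.0309). INSIG2 had a log2FC of 0.42 with siADAR1 #1 (adjusted p = 0.0481, with 0.0152 to 0.169 over all settings) and was called after median centring (0.56) and quantile normalization (0.53). SREBF1, named after its values were seen, rose with siADAR1 #2 (0.59 ± 0.15, adjusted p = 0.0192).

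Among 11 tested genes of uptake and intracellular transport, 3 were upregulated and 2 downregulated with siADAR1 #1, and 5 and 2 with siADAR1 #2. All genes tested had shares of 6.18% and 10.6% with siADAR1 #1, and of 11.1% and 15.5% with siADAR1 #2. VLDLR, a lipoprotein receptor, was at 292 and 215 normalized counts in siControl and at 825 to 1266 in the 4 knockdown libraries, which did not overlap with siControl. Its log2FC was 2.14 ± 0.24 with siADAR1 #1 and 1.96 ± 0.24 with siADAR1 #2 (adjusted p = 0.00300 and 0.00109, limma). STARD4, a carrier of sterols in the cytosol, rose with siADAR1 #2 (1.13 ± 0.13, adjusted p = 0.000756) and had a log2FC of 0.21 with siADAR1 #1. TMEM97, a sterol-responsive membrane protein that binds the lysosomal transporter NPC1, fell with siADAR1 #2 (−1.31 ± 0.13, adjusted p = 0.000568) and had a log2FC of −0.46 with siADAR1 #1 (adjusted p = 0.0487, with 0.0338 to 0.236 over all settings), which was called without siADAR1 #1 replicate 2 (−0.59, 0.0370). The other calls, named after their values were seen, were rises of LRP8 (0.82) and STARD3 (0.52) and falls of NPC2 (−0.83) and SCARB1 (−0.73) with siADAR1 #1. With siADAR1 #2 they were rises of LIPA (1.10), STARD3 (0.88) and NPC1 (0.50) and a fall of LRP8 (−1.11). STARD3 with siADAR1 #1 (adjusted p = 0.0288, limma) and NPC1 with siADAR1 #2 (0.0162) lay just beyond the fold threshold. These other calls were not followed over other settings.

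Of 8 tested genes of export, storage and LXR, 2 were upregulated and 2 downregulated with siADAR1 #1, and 2 and 1 with siADAR1 #2. The corresponding shares of all genes were 6.18% and 10.6% with siADAR1 #1, and 11.1% and 15.5% with siADAR1 #2. ABCA1, the cholesterol efflux pump, was at 1379 and 933 normalized counts in siControl, 433 and 406 with siADAR1 #1, and 6514 and 4876 with siADAR1 #2. The groups were far apart, lowest with siADAR1 #1 and highest with siADAR1 #2, as for LSS. The log2FC was −1.43 ± 0.22 with siADAR1 #1 (adjusted p = 0.00582, limma) and 2.31 ± 0.22 with siADAR1 #2 (adjusted p = 0.000442). Without siControl replicate 1 the fall of ABCA1 with siADAR1 #1 was −1.15 and was not called (adjusted p = 0.0559, the highest over all settings). ABCG1, another efflux transporter, was called with siADAR1 #2 (1.39 ± 0.32, adjusted p = 0.0149) and had a log2FC of 0.93 with siADAR1 #1, which was called after median centring (1.08). The call with siADAR1 #2 was lost without siControl replicate 1 (1.58, 0.0540), without siControl replicate 2 (1.20, 0.0966) and without siADAR1 #2 replicate 2 (0.97, 0.0791). NCEH1, a cholesteryl ester hydrolase, fell with siADAR1 #2 (−1.28 ± 0.18, adjusted p = 0.00165) and had a log2FC of −0.11 with siADAR1 #1, a sign that turned when libraries were centred. The other calls, named after their values were seen, were rises of APOE (1.26) and NR1H2 (0.65) and a fall of CYP27A1 (−1.26) with siADAR1 #1. APOE was low, with means of 29.5 normalized counts in siControl and 75.0 with siADAR1 #1.

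**Figure D4:**
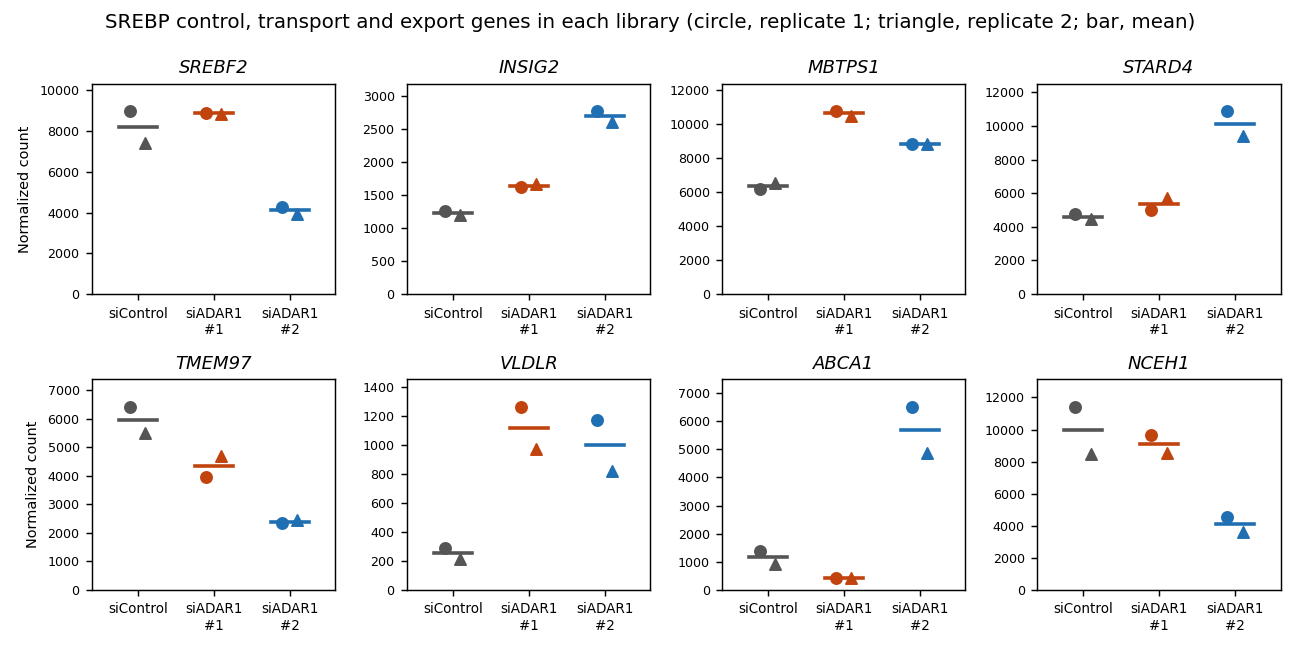
Normalized counts (vertical axes, linear and starting at 0) of 8 genes of SREBP control, transport and export in siControl (grey), siADAR1 #1 (orange) and siADAR1 #2 (blue); points are libraries and bars are means of 2, and the panels were chosen after the values were seen. SREBF2, NCEH1 and TMEM97 are lowest with siADAR1 #2, where INSIG2, STARD4 and ABCA1 are highest, and VLDLR is high with both siRNAs.

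Fatty acid synthesis is driven mainly by SREBP1. Of its 10 genes 1 was upregulated and 1 downregulated with siADAR1 #1, and 0 and 3 with siADAR1 #2. Over all genes tested these shares were 6.18% and 10.6% with siADAR1 #1, and 11.1% and 15.5% with siADAR1 #2. With siADAR1 #2, 3 of the 10 log2FC values were positive and 7 negative. FASN, the fatty acid synthase, named after its values were seen, was at 140% of siControl there. Its log2FC of 0.48 ± 0.11 (SE, adjusted p = 0.0114, limma) was inside the fold threshold. SCD, the stearoyl-CoA desaturase, fell with siADAR1 #2 to 40.2% of siControl (log2FC −1.31 ± 0.14, adjusted p = 0.000667, limma) and had a log2FC of 0.27 with siADAR1 #1. ME1, which supplies NADPH, fell with siADAR1 #2 (−1.35 ± 0.15, adjusted p = 0.000737). With siADAR1 #1 ME1 was at −0.56 ± 0.15 (adjusted p = 0.0359), and this call was lost without siControl replicate 1 (−0.58, 0.140), without siControl replicate 2 (−0.54, 0.151) and without siADAR1 #1 replicate 1 (−0.45, 0.167). ELOVL6, a fatty acid elongase, fell with siADAR1 #2 (−0.84 ± 0.18, adjusted p = 0.0114), a call lost without siControl replicate 1 (−0.79, 0.0842), without siControl replicate 2 (−0.89, 0.0561) and without siADAR1 #2 replicate 1 (−0.64, 0.0766). PNPLA3, a lipase named after its values were seen, had the largest log2FC of the list with siADAR1 #1, at 2.04 ± 0.41 (SE, adjusted p = 0.0150, limma). Its level was low, with means of 13.3 normalized counts in siControl and 60.7 with siADAR1 #1.

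The 8 genes did not share a single profile. Over the 6 libraries, which share their transfections, Pearson's r with the mean profile of the 8 (each gene centred, and included in that mean) was 0.99 for IDI1, 0.97 for INSIG1, 0.93 for FDFT1, 0.92 for SQLE and 0.92 for HMGCS1. It was 0.60 for FDPS, 0.29 for DHCR7 and −0.74 for LSS. Outside the 8, the genes most like the mean profile were PSMC1, a proteasome ATPase (r = 0.998), EPHA2, a receptor tyrosine kinase (0.997), GNL3, a nucleolar GTPase (0.996), TOR1B, a torsin ATPase (0.996), and ALAS1, the first enzyme of heme synthesis (0.995). Their log2FC values with siADAR1 #1 were between 0.19 (TOR1B) and 0.71 (EPHA2), and with siADAR1 #2 between −0.06 and −0.03. These values of r describe 6 libraries and carry no test.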

How the data were processed

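Gene expression was measured by poly(A)+ RNA-seq in 6 libraries of Cal62 cells. The authors trimmed adapters, counted reads on known genes (featureCounts and Salmon, genome build GRCh38, per the labels' processing notes) and normalized the counts with DESeq2, and they deposited log2 values after a variance-stabilizing transformation. The transformation was undone, and 100% of the deposited log2 values in every library then gave whole reads within a tolerance of 0.1. Gene symbols came from GENCODE 44, which matched 57830 of 58333 identifiers. Strand was not stated for the counting, so reads of overlapping antisense genes cannot be told apart.

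Differences in log2 value were tested in R 4.3.3 with the package limma 3.58.1 (linear models, then eBayes with a trend, two-sided, Benjamini-Hochberg over the 20858 genes tested), with 3 residual degrees of freedom for 3 groups and 4 for 2 groups. A gene was tested when its mean log2 value was at least the log2 of 10, which corresponds to 7.62 normalized counts. The thresholds for a call were 0.05 for the adjusted p-value and 0.5 for the size of the log2FC. Fold changes are on the deposited log2 scale, which understates those of low genes. With 2 libraries per group the number of replicates limits the precision, and limits from 3 reads cover counting error only.

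The genes named were the 8 members, ADAR, the up to 3 genes of each list with the smallest adjusted p-value in either comparison with siControl, and the 5 genes with the most similar profile. Others are marked as named after their values were seen, and their calls were not followed over the other settings. The members, lists and thresholds were chosen with earlier results of these data known. Some genes of these pathways are not reported here, and the lists were counted without them. Other settings tried were a filter at 50 or none, median centring, quantile normalization, recomputed size factors, log2 of the normalized count plus 1, voom on recovered reads, eBayes without trend, fits of only the libraries compared, a replicate block, and omission of each library in turn. The steps were tested on simulated data.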

Additional observations from a re-analysis of the deposited data

Results flagged for a closer look

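Flagged here are named genes whose change differed between the siRNAs by the direct limma test, each given as the log2FC of siADAR1 #1 minus siADAR1 #2. Of the 8 cholesterol genes, INSIG1 differed by 1.43, SQLE by 1.34, IDI1 by 1.11, FDFT1 by 1.07, HMGCS1 by 0.84 and LSS by −1.11. Of the other enzymes of sterol synthesis, CYP51A1 differed by 1.40, MSMO1 by 1.30, ACAT2 by 0.92, SC5D by 0.61 and PMVK by −0.80. The call of PMVK was lost when siADAR1 #1 replicate 1 (−0.55, adjusted p = 0.0836), siADAR1 #2 replicate 1 (−0.74, 0.0922) or siADAR1 #2 replicate 2 (−0.87, 0.0518) was left out. Among control and transport genes, SREBF2 differed by 1.11, TMEM97 by 0.85, NCEH1 by 1.16, INSIG2 by −0.71, STARD4 by −0.92 and ABCA1 by −3.74. Among genes of fatty acid synthesis, SCD differed by 1.58, ME1 by 0.79 and ELOVL6 by 0.61. The call of ELOVL6 held in 9 of 16 settings (adjusted p = 0.00600 to 0.192). It was lost with no filter (adjusted p = 0.0632), with no trend (0.0900) and in a fit of only the libraries compared (0.0641). It was also lost when siControl replicate 1 (0.61, 0.0642), siControl replicate 2 (0.61, 0.0640), siADAR1 #1 replicate 2 (0.43, 0.151) or siADAR1 #2 replicate 1 (0.41, 0.192) was left out. The adjusted p-values of these tests were 0.000109 (ABCA1) to 0.0337 (ELOVL6). No group had 4 samples, so single libraries were not tested as outliers.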

How the results depend on the processing

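The count of members called stayed at 6 for siADAR1 #1 against siADAR1 #2, and at 0 for both siRNAs as 1 group, in every alternative. With both as 1 group, 0 of all genes were called in each alternative, ADAR included, so that count says nothing particular about the members. With siADAR1 #1 the count of members called was 5, became 3 without the eBayes trend (FDFT1 and SQLE lost, adjusted p = 0.0561 and 0.0546) and changed when some single libraries were left out. With siADAR1 #2 it was 2, became 1 without a filter (LSS lost, adjusted p = 0.0669) and 0 without the trend, and it fell when some single libraries were left out. The cause was not tested.

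Over all genes, the calls with siADAR1 #1 were 3502, then 1347 without the trend, and 392, 1248 and 1412 when siControl replicate 1, siControl replicate 2 or siADAR1 #1 replicate 1 was left out. For siADAR1 #2 they were 5541, then 3150 when siControl replicate 1 and 3242 when siADAR1 #2 replicate 1 was left out. A library left alone in its group was assumed to vary like the others. For siADAR1 #1 against siADAR1 #2 the share of calls that were higher was 49.0%, and 60.0% after median centring.

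Values near 0 changed sign with the scaling. After median centring the log2FC with siADAR1 #1 was 0.14 for FDPS, 0.14 for DHCR7, 0.032 for NCEH1 and 0.078 for ACAT2, and with both siRNAs as 1 group 0.067 for DHCR7. After quantile normalization it was 0.054 for FDPS and 0.058 for DHCR7 with siADAR1 #1, 0.14 for DHCR7 and 0.057 for INSIG1 with siADAR1 #2, and for DHCR7 −0.083 between the siRNAs and 0.099 with both as 1 group. With recomputed size factors it was 0.0088 for FDPS and 0.0048 for DHCR7 with siADAR1 #1. None of these values was called.

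Leaving out 1 library in turn also changed signs. With siADAR1 #1 the ranges were −0.081 to 0.078 for FDPS, −0.23 to 0.21 for DHCR7, −0.33 to 0.10 for NCEH1, −0.17 to 0.037 for ACAT2 and −0.019 to 0.26 for SREBF2. With siADAR1 #2 they were −0.20 to 0.15 for DHCR7 and −0.36 to 0.17 for INSIG1. Between the siRNAs they were −0.20 to 0.24 for DHCR7, −0.078 to 0.43 for VLDLR and −0.76 to 0.054 for ADAR. With both as 1 group they were −0.077 to 0.30 for FDFT1, −0.12 to 0.36 for SQLE, −0.15 to 0.32 for LSS, −0.090 to 0.056 for DHCR7, −0.25 to 1.08 for ABCA1, −0.35 to 0.027 for PMVK and −0.20 to 0.27 for CYP51A1.

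The labels do not say what a replicate number marks, and libraries with the same number deviated together to a small extent. The difference between replicate 2 and replicate 1 had correlations of 0.106, 0.110 and 0.162 between the pairs of groups over 20858 genes. With the replicate block the members called were 5, 2, 6 and 0 in the 4 comparisons, and the calls over all genes rose to 4086 with siADAR1 #1 and 6038 with siADAR1 #2. Of the named genes, GGPS1 with siADAR1 #1 was the only change of call under the block.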
